A study of Mus musculus with 53 samples.

Results

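The potassium channel genes of the mouse sciatic nerve were taken as every listed gene whose symbol begins with Kcn, goes on with lower case letters and ends in a number. The rule found 92 genes among 49568 listed, with 77 pore-forming subunits and 15 auxiliary subunits. The rule reads symbols alone, though it was proposed with results of these data known. A gene was counted as expressed where its mean over the 53 nerves was at least the log2 of 10, about 3.3, on the deposited log2 scale, and 67 of the 92 (72.8%) passed, against 18098 of all genes (36.5%).

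RNA was sequenced from sciatic nerves of C57BL/6J mice, described in the study as male. Mice on a standard diet (SD) gave 5 libraries at 16 weeks of age and 8 at 24 weeks. Mice fed a high-fat diet (HFD, 60% of calories from fat) from 5 weeks of age gave 7 at each age. Mice on the same high-fat diet that were also injected with streptozotocin (HFD-STZ, 75 mg/kg at 12 weeks and 50 mg/kg 3 days later), a toxin of insulin-producing beta cells, gave 5 at 16 weeks and 8 at 24 weeks. In dietary reversal (DR), mice of both models were returned to the standard diet from 16 weeks for 8 weeks, which gave 7 HFD-DR and 6 HFD-STZ-DR libraries at 24 weeks. No allele or transgene was used, and all mice were of the same strain. The diet model and the low-dose toxin model stand for prediabetes and type 2 diabetes. The study does not say whether the sheath was left on the nerve.

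Potassium channels let potassium leave a cell and thereby hold or restore its resting potential. In myelinated axons the voltage-gated (Kv) alpha subunits of the Kcna family sit beside the node of Ranvier under the myelin sheath, with Kcnab auxiliary subunits attached to them. Inward rectifiers (Kir, Kcnj genes) pass potassium near the resting potential and are used by glia to take up potassium released by axons, and tandem-pore (K2P, Kcnk genes) channels carry leak current. A sciatic nerve holds axons but not their cell bodies, so most of its RNA comes from Schwann cells, fibroblasts, perineurial and vascular cells and any fat or muscle left on the nerve. In whole nerve, fewer cells of a type and less RNA per cell cannot be told apart.

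The pore-forming members share a short piece of coding sequence, the selectivity filter. In it glycine, an aromatic residue and glycine line the narrowest part of the pore. The stretches below show it in the members on which the results turn, 45 bases each, read 5′ to 3′ on the coding strand from GENCODE transcripts on GRCm38, with the 9 bases of the filter motif in capitals.
Kcnj14: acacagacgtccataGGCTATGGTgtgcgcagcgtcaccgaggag
Kcnj15: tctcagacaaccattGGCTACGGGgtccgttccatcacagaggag
Kcna1: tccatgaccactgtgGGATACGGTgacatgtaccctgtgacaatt
Kcna2: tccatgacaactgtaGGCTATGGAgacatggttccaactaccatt
Kcna7: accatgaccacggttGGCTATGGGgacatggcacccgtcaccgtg
Kcnk1: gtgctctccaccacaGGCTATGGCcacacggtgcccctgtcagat
Kcnk3, first pore: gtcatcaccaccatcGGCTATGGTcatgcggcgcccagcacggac
Kcnk3, second pore: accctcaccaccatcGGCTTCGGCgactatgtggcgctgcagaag

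The Kcnj14 stretch lies at chr7:45819612-45819656 in exon 2 of 3, on the minus strand of a gene that spans chr7:45816460-45824782. That of Kcnj15 is at chr16:95295971-95296015, in exon 4 of 4 of a plus-strand gene at chr16:95257558-95300260. The Kcna1 stretch is at chr6:126642207-126642251 in exon 2 of 2 on the minus strand, and those of Kcna2 and Kcna7 are at chr3:107105215-107105259 (exon 3 of 3, plus strand) and chr7:45409452-45409496 (exon 2 of 2, plus strand). The second pore of Kcnk3 is at chr5:30622193-30622237 in exon 2 of 2 on the plus strand, while the first pore of Kcnk3 and the pore of Kcnk1, on chromosome 8, each span a splice junction. At matched positions 32 of the 45 bases of Kcnj15 equal those of Kcnj14. The same count is 15 for Kcna1, 18 for Kcna2, 20 for Kcna7, 17 for Kcnk1 and 21 for each pore of Kcnk3. The motif was searched in frame on the coding strand as GGNTATGGN, GGNTACGGN, GGNTTTGGN or GGNTTCGGN, where the first pair encodes tyrosine and the other phenylalanine in the middle. It was present in 77 of 77 pore-forming members and in 0 of 15 auxiliary members, against 2892 of 21794 protein-coding genes (13.3%). The tyrosine form was found in 62 members and the phenylalanine form in 26, and 11 members held both, 8 of them among the 14 K2P genes, whose subunits carry a pair of pores.

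The labelled tissue was checked against myelin markers, which were among the most abundant messages (mean log2 values 19.9 for Mbp and 20.2 for Pmp22). Correlations between libraries over expressed genes ran from 0.916 to 0.994, and 0 pairs held identical values. The log2 values carry no read totals, so the depth of each library is unknown, and values near that limit are the least certain. The labels do not say that each library is a separate mouse, so p-values measure the spread between these libraries, which may be technical.

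A single library, HFD-STZ 24 weeks replicate 7, stood apart. Of the 67 expressed members 36 (53.7%) had their highest value of all 53 libraries there, against 3654 of the 18098 expressed genes (20.2%). By class these were 8 of 11 expressed auxiliary members, 13 of 24 Kv alpha members, 5 of 8 calcium- or sodium-activated members, 4 of 6 silent Kv members, 3 of 8 K2P members and 3 of 10 Kir members. In all, 24 of the 92 members lay more than 2.5 above the median of the other 7 libraries of the group. The transcript of Kcnk18, a K2P channel of sensory neurons, had 8.84 against a median of 1.42, Kcnip4, a modulator of Kv channels, had 10.89 against 5.41, and Kcnab2 had 13.19 against 9.23. The 6 markers of neuronal cell bodies (Calca, Scn10a, Avil, Prph, Snap25 and Tubb3) also had their highest values in that library, and 23 of the 25 genes with any value above 22 had their highest value there. These counts overlap, since Calca, Scn10a, Avil and Tubb3 are among the 25 genes. Their values there exceed even the mean of Pmp22 (20.2), so their size is uncertain. The 25 genes were left out of the fits, and 2 of the 6 markers were tested. Kcnj14 was 5.93 in it, inside the range of the other 7. Fits without that library are given below for some results, while others are given only with it kept.

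**Figure D1:**
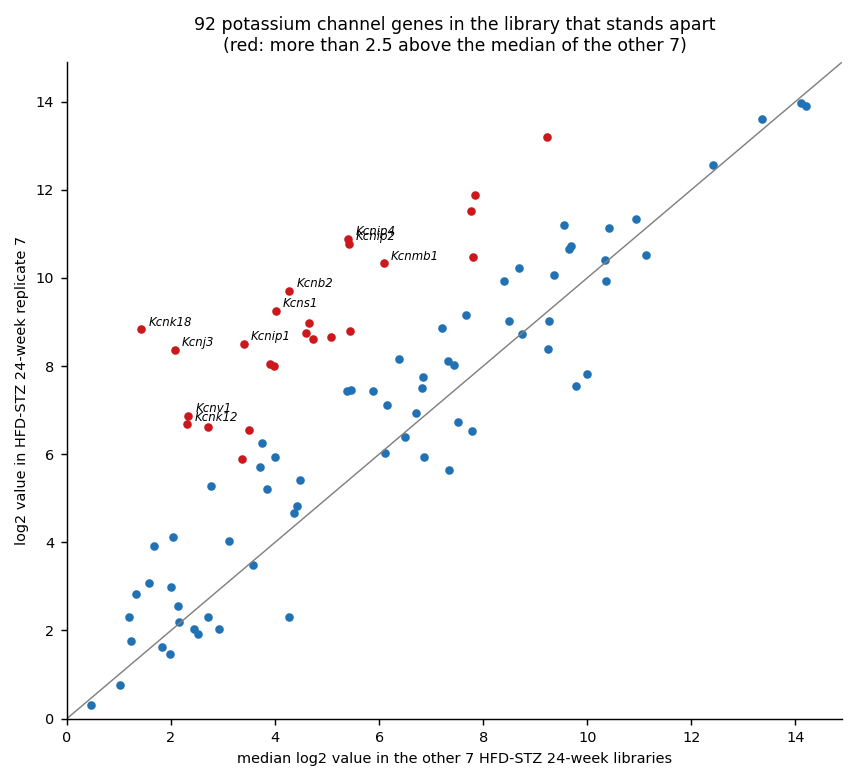
Deposited log2 value of each of the 92 potassium channel genes in HFD-STZ 24 weeks replicate 7 (vertical axis) against the median of the other 7 libraries of its group (horizontal axis). Points in red, 24 of 92, lie more than 2.5 above that median, and Kcnk18, Kcnip4 and Kcnab2 are among them.

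Each class of channel subunits had expressed members. The expressed members were 24 of 30 Kv alpha genes, 6 of 10 silent Kv genes (Kcnf, Kcng, Kcns and Kcnv, which do not form channels alone), 10 of 15 Kir genes, 8 of 14 K2P genes, 8 of 8 calcium- or sodium-activated genes and 11 of 15 auxiliary genes. A mean at or above the limit was reached in every group by 60 members, in at least 1 group by 69, and 47 members had a mean of at least 5. Just inside the limit were Kcnk10 at 3.44, Kcna4 at 3.47 and Kcng1 at 3.59, and just outside were Kcnh3 at 3.22, Kcnh5 at 3.17 and Kcnh4 at 2.82. The lowest mean levels were those of Kcnk15 (0.03) and Kcnj1 (0.51), a kidney channel. The number of expressed members was 67 also without HFD-STZ 24 weeks replicate 7.

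Levels of different genes were compared after subtraction of the log2 of exonic length in kilobases. On that scale Kcnk1, a K2P leak channel, came first with a mean of 12.26. The juxtaparanodal Kv subunits followed, with Kcna1 at 11.91 and Kcna2 at 10.62, and then Kcna6 at 9.82. After them came Kcnj13 (9.41), Kcnk5 (9.32), Kcnj12 (9.04), Kcnj8 (8.85), Kcnh2 (8.51) and Kcnk2 (7.98), which are inward rectifiers, leak channels and, for Kcnh2, a voltage-gated channel best known from the heart. Of the exonic bases of Kcna6 39.6% overlap the opposite-strand gene Gm26673, and of those of Kcnj13 49.1% overlap Gigyf2, so that their levels are uncertain, since the kit named in the study does not mark strand. The inward rectifiers and the leak channel described next were further down the order, with Kcnk3 at 6.28, rank 20 of 67, Kcnj15 at 3.83 and Kcnj14 at 3.68, rank 40.

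The other subunits were spread over a wide range of deposited log2 values, which are not adjusted for length. Among Kv alpha genes, Kcnh7 and Kcnh8, from a family of slowly gating channels, had means of 8.84 and 7.64, and Kcnq3, a subunit of the M-current channel of axons, had 4.31. Among auxiliary subunits, Kcnab1 had 9.59 and Kcnab2 9.34. For the ATP-sensitive channel of vessels Kcnj8 had 10.20, and Kcnj11, its counterpart in muscle and beta cells, had 4.21. The large-conductance calcium-activated (BK) channel was represented by its pore subunit Kcnma1 at 7.02 and the auxiliary subunits Kcnmb1, of smooth muscle, at 6.21 and Kcnmb4 at 8.76. Channels known from immune cells were also listed above the limit, with Kcna3 at 6.10 and Kcnn4 at 9.65.

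Kcnj14, which encodes an inward rectifier of the strongly rectifying kind, was the only member that passed the adjusted test in any comparison when all libraries were kept. In SD nerves at 24 weeks its log2 values ran from 3.15 to 4.63 with a median of 4.20 (mean 3.98 ± 0.64, SD, n = 8). In HFD nerves of that age they ran from 5.58 to 8.19 with a median of 7.31 (7.10 ± 1.06, n = 7), and in HFD-STZ nerves from 4.61 to 7.71 with a median of 6.54 (6.44 ± 0.99, n = 8). The SD and HFD libraries did not overlap, and SD and HFD-STZ overlapped by 1 library on each side. After dietary reversal HFD-DR nerves ran from 2.92 to 6.11 with a median of 4.85 (4.67 ± 1.16, n = 7), and HFD-STZ-DR nerves from 3.46 to 4.45 with a median of 3.79 (3.87 ± 0.37, n = 6). The highest HFD-STZ-DR library therefore lay below the lowest HFD-STZ library, while HFD-DR and HFD overlapped.

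**Figure D2:**
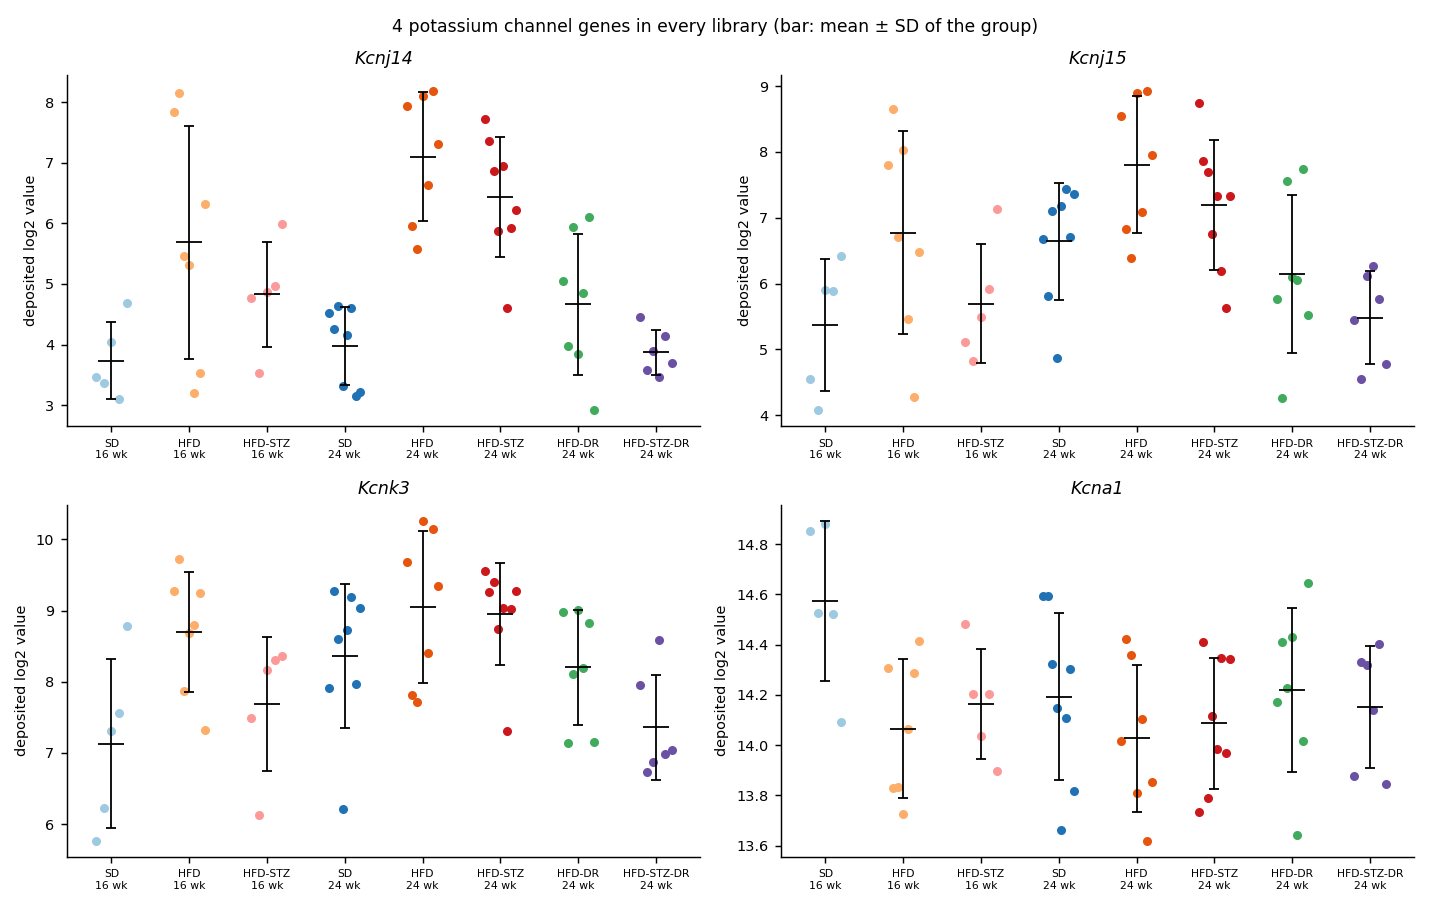
Deposited log2 values of Kcnj14, Kcnj15, Kcnk3 and Kcna1 in each of the 53 libraries, by group, with the bar and whiskers giving the mean ± SD. For Kcnj14 the HFD libraries at 24 weeks (5.58 to 8.19) all lie above the SD libraries of that age (3.15 to 4.63).

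With HFD at 24 weeks Kcnj14 rose by 3.12 log2 units against SD (SE 0.41, 95% interval 2.25 to 3.98, limma, Benjamini-Hochberg adjusted p = 0.00207; exact permutation p = 0.000311, two-sided). It was the 1 call among 66 members tested, where 0.121% of all genes were called, and 1 member of 66 was higher without overlap, where 0.181% of all genes were. With HFD-STZ at 24 weeks it rose by 2.46 against SD (SE 0.39, adjusted p = 0.0258; exact permutation p = 0.000311), the 1 call among 67 members where 0.0336% of genes were called. The difference between HFD-STZ and HFD at 24 weeks was -0.66 (adjusted p = 0.785; exact permutation p = 0.235), so these neighbours in the order of levels were not separated. With reversal in the streptozotocin model Kcnj14 fell by 2.57 against HFD-STZ (SE 0.40, 95% interval -3.42 to -1.72, adjusted p = 0.0409; exact permutation p = 0.000666). This was the 1 call among 67 members, where 0.0839% of genes were called, and 1 member of 67 was lower without overlap, where 0.185% of genes were. In the diet-only model HFD-DR differed from HFD by -2.43 (SE 0.53, 95% interval -3.56 to -1.30), which did not pass the adjusted test (adjusted p = 0.252; exact permutation p = 0.00291). In a fit of all 8 groups it gave an adjusted p of 0.0554, and when the fit also held a term for runs of consecutive library numbers the difference was -2.57 (adjusted p = 0.0423), a call. The test of whether the effect of reversal differed between both models gave a difference of -0.14, with no call.

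After reversal Kcnj14 differed from SD at 24 weeks by 0.68 in HFD-DR (exact permutation p = 0.176) and by -0.11 in HFD-STZ-DR (exact permutation p = 0.703), and HFD-STZ-DR differed from HFD-DR by -0.80 (exact permutation p = 0.142). At 16 weeks, before reversal began, the SD values were 3.47, 3.36, 4.04, 3.11 and 4.69, the HFD-STZ values 4.77, 3.54, 4.87, 4.97 and 5.99, and the HFD values ran from 3.19 to 8.15 with a median of 5.46. The HFD libraries were the most spread at that age (SD 1.92) and overlapped the SD group. The difference from SD was 1.95 for HFD (adjusted p = 0.559; exact permutation p = 0.0505) and 1.09 for HFD-STZ (adjusted p = 0.586; exact permutation p = 0.0476), and neither passed. From 16 to 24 weeks the difference was 0.25 in SD (exact permutation p = 0.514), 1.41 in HFD (adjusted p = 0.861; exact permutation p = 0.115) and 1.61 in HFD-STZ (adjusted p = 0.289; exact permutation p = 0.0233). The test of the effect by age gave 1.16 for HFD and 1.36 for HFD-STZ (adjusted p = 0.757), so a larger effect at 24 weeks was not shown.

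The call for HFD against SD at 24 weeks held under each of 9 settings in which the gene was tested (2.46 to 3.21) and without each of the 15 libraries in turn (2.93 to 3.37). The call for HFD-STZ held without 6 of 16 libraries in turn (difference 2.28 to 2.72, adjusted p 0.000925 to 0.0849), and that for reversal in the streptozotocin model without 3 of 14 (-2.83 to -2.39, adjusted p 0.00105 to 0.154). Without HFD-STZ 24 weeks replicate 7 the values were 2.53 (adjusted p = 0.023) and -2.64 (adjusted p = 0.025).

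Marker lists of fat cells and of other cells differed in some of the same comparisons as Kcnj14, and also in others. The adipocyte score, the mean log2 value of Adipoq, Plin1, Cidec, Lep, Fabp4 and Retn, ran at 24 weeks from 9.88 to 12.7 in SD, 11.4 to 14.04 in HFD, 10.8 to 13.8 in HFD-STZ, 9.65 to 12.9 in HFD-DR and 8.20 to 11.3 in HFD-STZ-DR, and none of the 6 markers was at 0. None of the 6 passed the adjusted test in any comparison. At an unadjusted p under 0.05 limma gave 3 of 6 higher in HFD against SD at 24 weeks (9.06% of all genes in either direction). It gave 1 of 6 higher, Lep, in HFD-STZ against SD at that age (5.99%). In reversal 4 of 6 were lower in HFD-DR against HFD (6.72%) and 6 of 6 in HFD-STZ-DR compared with HFD-STZ (6.48%). The list also moved where Kcnj14 differed little. In SD at 24 against 16 weeks 5 of 6 were higher (10.5% of genes), with Kcnj14 at 0.25. In HFD-STZ-DR against SD 5 of 6 were lower (9.16%), with Kcnj14 at -0.11. With the score as a covariate the difference in Kcnj14 from SD at 24 weeks was 2.46 in HFD (adjusted p = 0.000889) and 1.93 in HFD-STZ (adjusted p = 0.0273). For reversal it was -1.14 in the diet-only model (adjusted p = 0.181) and -1.25 in the streptozotocin model (adjusted p = 0.467). Mast cell, macrophage and skeletal muscle lists gave no adjusted call in these comparisons. At an unadjusted p under 0.05, HFD-DR against HFD had 4 of 4 mast cell markers and 2 of 5 macrophage markers lower and 4 of 6 skeletal muscle markers higher, HFD-STZ against SD had 2 of 4 mast cell markers lower, and HFD against SD had 1 of 5 macrophage markers higher. The mean of the mast cell markers ran from 8.66 to 10.06 in HFD and 7.36 to 9.32 in HFD-DR, and that of the macrophage markers from 10.49 to 12.3 and from 10.53 to 11.2, with none of either list at 0. The part of these cells in the Kcnj14 differences was not tested. At 16 weeks, where the adipocyte score ran from 7.83 to 11.9 in SD and 11.2 to 13.8 in HFD, the difference with the covariate was 0.28.

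Kcnj15, another inward rectifier, and Kcnk3, an acid-sensitive leak channel, were spread over several log2 units within groups and gave no adjusted call. At 24 weeks Kcnj15 ran from 4.87 to 7.44 in SD (median 6.91), 6.39 to 8.93 in HFD (7.95) and 5.63 to 8.75 in HFD-STZ (7.34). After reversal it ran from 4.26 to 7.74 in HFD-DR (6.06) and 4.55 to 6.26 in HFD-STZ-DR (5.61). All these groups overlapped except HFD and HFD-STZ-DR, and the reversal medians were the lowest. It differed by 1.16 in HFD against SD (SE 0.45, adjusted p = 0.453), by -1.66 in HFD-DR against HFD (SE 0.53, adjusted p = 0.578) and by -1.71 in HFD-STZ-DR compared with HFD-STZ (SE 0.43, adjusted p = 0.187). The last value became -1.93 (adjusted p = 0.041), a call, without HFD-STZ 24 weeks replicate 7. The share of all genes called in that fit is not given. In HFD-STZ-DR Kcnj15 stood at -1.16 against SD (adjusted p = 0.412; exact permutation p = 0.0273).

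For Kcnk3 the values at 24 weeks ran from 6.21 to 9.27 in SD (median 8.66), 7.71 to 10.26 in HFD (9.34) and 7.30 to 9.56 in HFD-STZ (9.15). They ran from 7.15 to 9.01 in HFD-DR (8.19) and 6.73 to 8.58 in HFD-STZ-DR (7.01), again with overlap. The difference of HFD-STZ-DR from HFD-STZ was -1.59 (SE 0.36, adjusted p = 0.128; exact permutation p = 0.004). It was -1.83 (adjusted p = 0.00601), a call, without HFD-STZ 24 weeks replicate 6, the library where Kcnk3 was lowest in its group (7.30). Leaving out any other library gave no call, and the share of all genes called without replicate 6 is not given. At 16 weeks the SD values were 5.77, 6.22, 7.31, 7.56 and 8.79 and the HFD values ran from 7.32 to 9.73, a difference of 1.57 (SE 0.51, adjusted p = 0.466; exact permutation p = 0.0253). The HFD-STZ values at that age were 7.49, 6.13, 8.16, 8.31 and 8.37, and they overlapped both.

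Within groups these genes followed the adipocyte score. A limma fit with the 8 groups, the adipocyte score and a skeletal muscle score, on the 52 libraries other than HFD-STZ 24 weeks replicate 7, gave a slope for 30 of 67 members (18 upward, 12 downward), against 33.5% of all genes (18.4% upward, 15% downward). The fit was chosen after the data were seen. The steepest upward slopes, in log2 units per log2 unit of score, were those of Kcnj15 (0.76, SE 0.07), Kcnj14 (0.68, SE 0.09) and Kcnk3 (0.65, SE 0.06), and those of Kcne4 (0.33) and Kcna5 (0.31) were smaller. Downward slopes were shallow and included Kcna1 (-0.13), Kcna2 (-0.11), Kcna6 (-0.08), Kcnk1 (-0.11), Kcnk2 (-0.10) and Kcnab1 (-0.06). Whether the fat cell content of the nerve had a part in the group differences was not tested beyond the covariate fits.

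**Figure D3:**
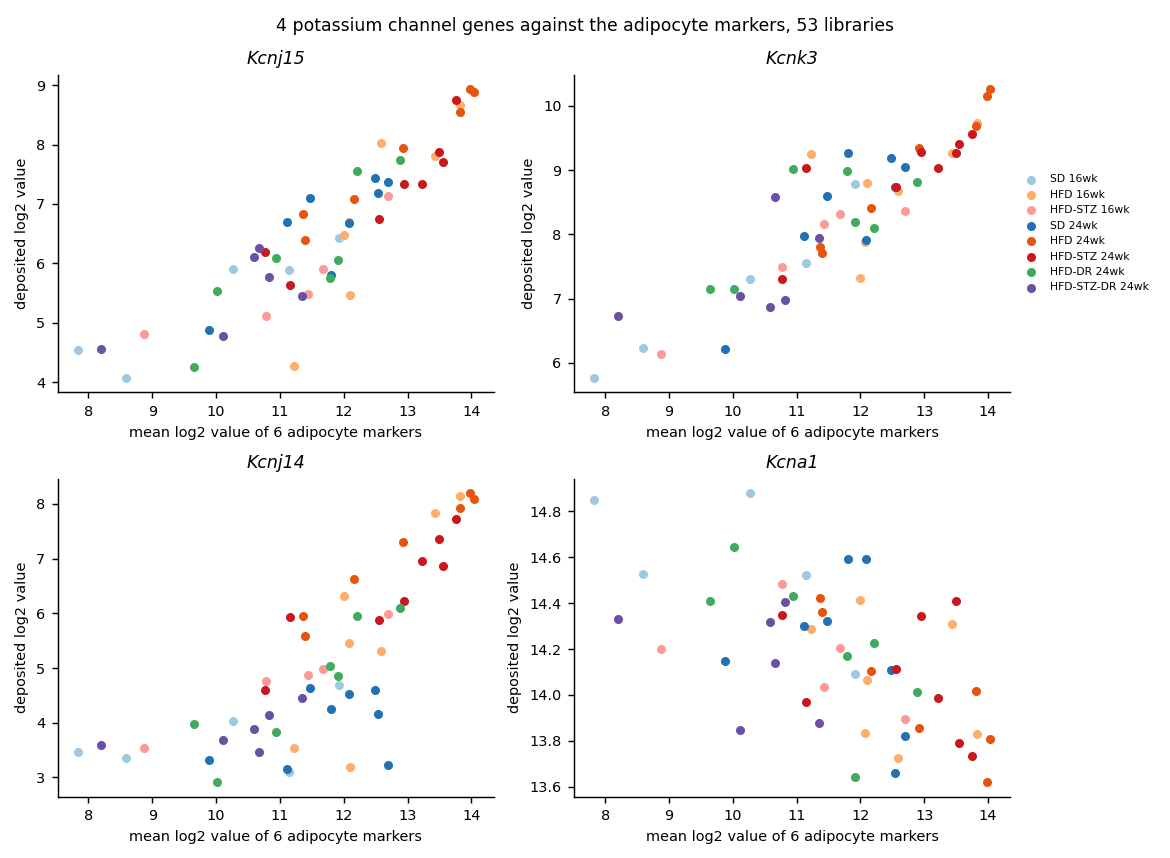
Deposited log2 values of Kcnj15, Kcnk3, Kcnj14 and Kcna1 (vertical axes) against the mean log2 value of 6 adipocyte markers (horizontal axes), with 1 point per library for the 53 libraries and colours for groups. The slopes within groups are 0.76, 0.65, 0.68 and -0.13.

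The messages of Kcna1, Kcna2 and Kcna6 varied little in whole nerve. Which cells hold them was not tested. Kcna1 was 14.85, 14.53, 14.88, 14.52 and 14.09 in the SD nerves at 16 weeks, ran from 13.72 to 14.41 in HFD, and was 14.48, 14.20, 14.04, 14.20 and 13.90 in HFD-STZ. Of the 5 SD nerves 4 were above every HFD and HFD-STZ nerve, and the other overlapped them. The difference from SD was -0.51 in HFD (SE 0.15, adjusted p = 0.438; exact permutation p = 0.0202) and -0.41 in HFD-STZ (adjusted p = 0.585; exact permutation p = 0.0635). At 24 weeks the differences from SD were -0.17 in HFD and -0.11 in HFD-STZ (exact permutation p = 0.322 and 0.479), and the Kcna1 values of all 5 groups of that age lay between 13.62 and 14.64. Kcna2 lay between 13.69 and 14.56 in every library and Kcna6 between 11.77 and 12.71. The largest Kcna2 differences were 0.25 in HFD-STZ-DR against SD (adjusted p = 0.47) and -0.26 in HFD-STZ at 24 against 16 weeks (adjusted p = 0.326).

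Kcnab2, whose product binds these Kv subunits, was higher in HFD than in SD at 24 weeks by 0.27 (SE 0.09, adjusted p = 0.345; exact permutation p = 0.00777) and differed by -0.36 in HFD-DR against HFD (SE 0.10, adjusted p = 0.467; exact permutation p = 0.0035). The HFD values ran from 9.20 to 9.74, those of SD from 8.99 to 9.36 and those of HFD-DR from 8.85 to 9.30. Both differences were under 0.5 log2 units, the HFD libraries overlapped each of the other groups, and neither passed. Kcnq3 gave no unadjusted p under 0.05 in any comparison. Kcnj10, the main inward rectifier of glia in the brain, ran from 4.88 to 7.44 over all libraries, and the lowest exact permutation p of its 14 comparisons was 0.0839.

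At 16 weeks no member passed the adjusted test. In HFD against SD 0 of 66 members passed the adjusted test, where 0.00557% of genes did, and 5 of 66 had an unadjusted p under 0.05 by limma, where 8.56% of genes had. In HFD-STZ against SD 0 of 65 passed, where 0% of genes did, and 9 of 65 had an unadjusted p under 0.05, where 8.41% of genes had. Kcnk5, a leak channel, was 11.38, 11.29, 11.32, 11.18 and 11.19 in HFD-STZ and 10.97, 10.63, 10.40, 10.87 and 11.17 in SD, so every HFD-STZ library was above every SD library. The difference was 0.46 (SE 0.13, adjusted p = 0.529; exact permutation p = 0.00794, the smallest that 5 against 5 allows), and 1 member of 65 was higher without overlap, where 0.727% of genes were. Lower without overlap were 2 of 65 members, where 1.36% of genes were, namely Kcng4, a silent subunit, at -1.51 (adjusted p = 0.576) and Kcnn4, a calcium-activated channel of immune cells, at -0.18. Without SD 16 weeks replicate 2, where Kcng4 was 7.45 and muscle messages were high, the Kcng4 difference was -0.93 (adjusted p = 0.466). Kcnk1, the highest member per length, differed by -0.41 (SE 0.10, adjusted p = 0.521; exact permutation p = 0.0159). In HFD-STZ against HFD 0 of 66 passed, where 0% of genes did, and 4 of 66 had an unadjusted p under 0.05, where 4.88% of genes had.

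At 24 weeks 5 of 66 members had an unadjusted p under 0.05 in HFD against SD, where 9.06% of genes had. All 5 were higher, where 5.55% of genes were higher at such a p, namely Kcnj14, Kcnj15, Kcnab2, Kcnip2 and Kcnb2. In HFD-STZ against SD they were 2 of 67, where 5.99% of genes had such a p. Beside Kcnj14 this was Kcnh2, which ran from 10.84 to 11.34 in HFD-STZ and from 10.35 to 10.92 in SD, a difference of 0.36 (SE 0.08, adjusted p = 0.326; exact permutation p = 0.000622). Without HFD-STZ 24 weeks replicate 7, where Kcnh2 was highest, the difference was 0.31 (adjusted p = 0.228). In HFD-STZ against HFD 0 of 68 passed, where 0% of genes did, and 2 of 68 had an unadjusted p under 0.05, where 5.6% of genes had. That count was 7 of 66 without replicate 7, where 5.25% of genes had.

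In reversal 6 of 67 members had an unadjusted p under 0.05 in HFD-DR against HFD, where 6.72% of genes had, and 0 of 67 passed, where 0.0108% of genes did. In HFD-STZ-DR compared with HFD-STZ the unadjusted count was 6 of 67, where 6.48% of genes had. All 6 were lower, where 4.51% of genes were lower at such a p, and they included Kcnj14, Kcnk3, Kcnj15, Kcns3 and Kcnj8. Without replicate 7 it was 5 of 67, where 8.27% of genes had. Against SD, 0 of 67 members had an unadjusted p under 0.05 in HFD-DR, where 5.15% of genes had, and 5 of 66 in HFD-STZ-DR, where 9.16% of genes had. HFD-STZ-DR against HFD-DR gave 1 of 67, Kcnk3 at -0.84, where 3.58% of genes had such a p. None of these last 3 comparisons gave an adjusted call, for members or for any gene (0%).

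Age was compared in 3 groups. In SD at 24 against 16 weeks 0 of 67 members passed the adjusted test, where 0% of genes did, and 16 of 67 had an unadjusted p under 0.05, where 10.5% of genes had. Leaving out each library in turn moved that count between 7 and 20, and with the adipocyte score as a covariate it was 2 of 67, where 2.91% of genes had. Of the 6 adipocyte markers 5 had an unadjusted p under 0.05 and were higher at 24 weeks. Kcnh7 ran from 8.79 to 9.27 at 16 weeks and 8.44 to 8.87 at 24 weeks, a difference of -0.38 (adjusted p = 0.35; exact permutation p = 0.00466). Kcnip2, a modulator of Kv channels, differed by -0.60 (exact permutation p = 0.00932), while Kcna5, a Kv subunit of muscle and immune cells, differed by 0.91 (exact permutation p = 0.0186) and the silent subunit Kcns1 by 0.70 (exact permutation p = 0.00932). Kcng2, a silent subunit, was higher without overlap, with 4.68 to 6.29 at 24 weeks against 4.22 to 4.65, as was 1 of 67 members where 0.146% of genes were.

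The difference in these counts between groups was not tested. In HFD at 24 against 16 weeks 0 of 67 passed, where 0.0653% of genes did, and 4 of 67 had an unadjusted p under 0.05, where 5.89% of genes had. In HFD-STZ the counts were 0 of 67, where 0% of genes passed, and 10 of 67, where 12.5% of genes had such a p. Without replicate 7 the latter was 13 of 67, where 15.4% had. With the adipocyte score as a covariate the counts were 6 of 67 in HFD (6.11% of genes) and 12 of 67 in HFD-STZ (13.5%), so SD, the highest of the 3 without the covariate, was the lowest with it. Kcnh8 was lower at 24 weeks by each estimate, with -0.42 in SD, -0.48 in HFD (exact permutation p = 0.0478) and -0.51 in HFD-STZ (exact permutation p = 0.0186), and it differed by 0.53 in HFD-DR against HFD (adjusted p = 0.716; exact permutation p = 0.0449). Kcng2 was again higher without overlap in HFD-STZ, as was 1 of 67 members where 0.512% of genes were. The tests of the difference between effects gave 0 calls among members and all genes, with an unadjusted p under 0.05 in 1 of 67 members for HFD by age (1.67% of genes), 5 of 67 for HFD-STZ by age (4.68%) and 1 of 67 for reversal by streptozotocin (1.71%). Without replicate 7 the counts were 5 of 67 for HFD-STZ by age (4.13%) and 0 of 67 for reversal by streptozotocin (1.73%). Comparisons with the same SD or HFD-STZ group share its libraries and are not independent.

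Some members were high in a few libraries with muscle messages. The skeletal muscle score, the mean log2 value of Acta1, Ckm, Myh4, Myh1, Tnnt3 and Mylpf, was 14.3 to 17.1 in 5 libraries, which were SD 24 weeks replicate 5, HFD-STZ-DR replicate 4, HFD-DR replicate 5, HFD 24 weeks replicate 1 and SD 16 weeks replicate 2, and 6.52 to 13.8 in the other 48. Kcna7, a Kv subunit of skeletal muscle, ran from 6.82 to 9.20 in these 5 and from 2.25 to 7.71 elsewhere with a median of 3.42. Kcnj11 ran from 6.46 to 8.63 in the 5 and from 2.39 to 7.37 in the others. Kcnc1 ran from 6.24 to 8.75 and from 3.05 to 8.75. The 5 libraries belong to 5 groups, 1 in each.

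The slope on the muscle score within groups was called for 13 of 67 members (12 upward, 1 downward), against 13.8% of all genes (10.7% upward, 3.11% downward), in the same fit chosen after the data were seen. The upward slopes were led by Kcna7 (0.59), Kcnj11 (0.46), Kcnc4 (0.39), Kcnc1 (0.38), Kcng4 (0.36) and Kcnma1 (0.28), and the downward one was Kcnt2 (-0.07). Kcna7, Kcnc1 and Kcnc4 are named here because of their values. The 16 week value of Kcng4 in SD, 7.45 in replicate 2, belongs to 1 of these 5 libraries. The part of muscle left on the nerve in the group differences was not tested beyond the covariate fits.

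**Figure D4:**
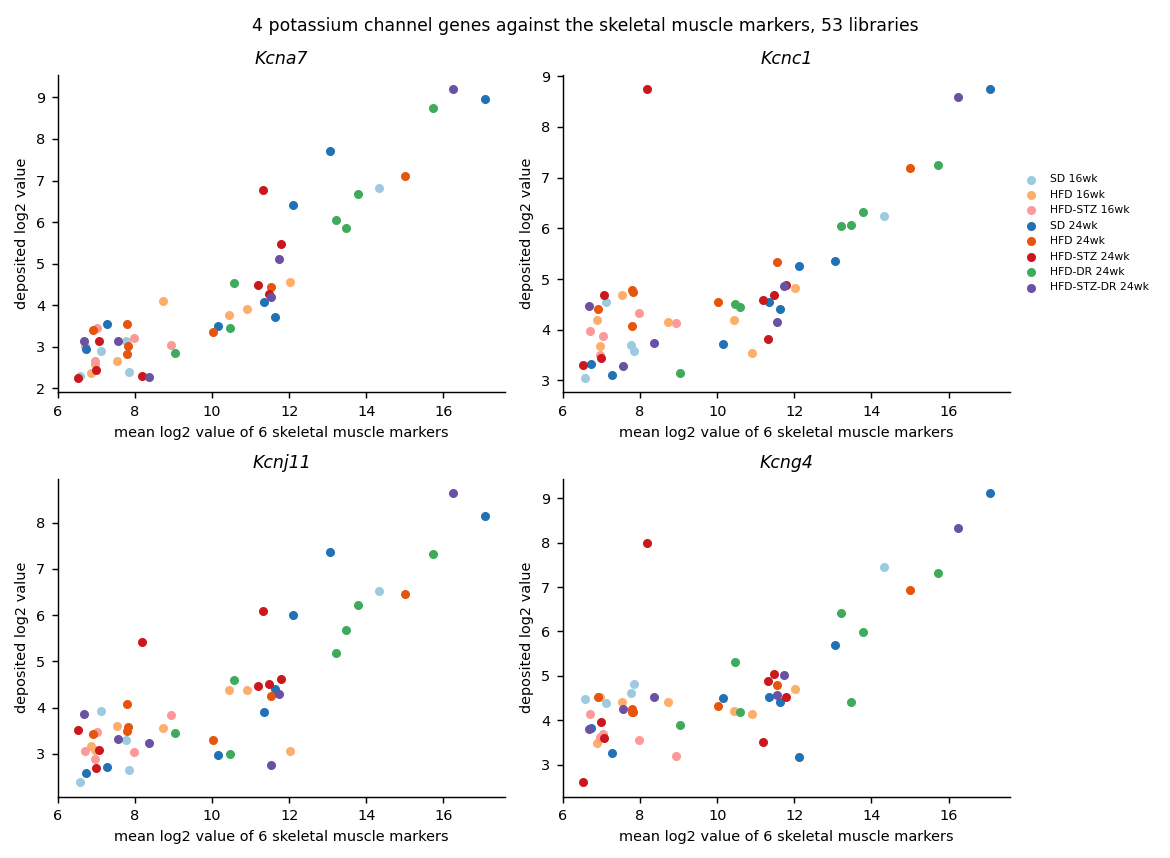
Deposited log2 values of Kcna7, Kcnc1, Kcnj11 and Kcng4 (vertical axes) against the mean log2 value of 6 skeletal muscle markers (horizontal axes), with 1 point per library for the 53 libraries and colours for groups. The 5 libraries with a score of 14.3 to 17.1 hold Kcna7 values of 6.82 to 9.20.

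Channels of vessels, smooth muscle and immune cells gave no adjusted call. Kcnj8 lay between 9.66 and 10.76 in all libraries, and its largest difference was 0.28 in HFD-STZ at 24 against 16 weeks (adjusted p = 0.321). Kcnma1 ran from 4.96 to 10.66 and had an unadjusted p under 0.05 for age in SD (1.40, adjusted p = 0.476) and in HFD-STZ (1.14, adjusted p = 0.311). Kcna3 lay between 5.16 and 6.87, with no unadjusted p under 0.05 in any comparison.

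Genes whose proteins bind, place or modulate potassium channels were read from a list of 28, of which 26 were tested. None passed the adjusted test in any comparison. At an unadjusted p under 0.05 by limma, HFD against SD at 24 weeks gave 2 of 26 (9.06% of all genes), both higher, Abcc8, the sulfonylurea receptor of the ATP-sensitive channel, and Sptbn4, a spectrin of the node. HFD-STZ against SD at 24 weeks gave Adam23 and Sptbn4 higher and Hcn4 lower (5.99% of all genes). In reversal, HFD-DR against HFD gave Lgi1 and Lrrc52 higher and Cntn2, an adhesion molecule of the juxtaparanode, lower (6.72% of all genes), and HFD-STZ-DR compared with HFD-STZ gave Lgi2 lower (6.48%). Age gave 4 higher in HFD (5.89% of all genes), 3 higher and 1 lower in SD (10.5%) and 1 lower in HFD-STZ (12.5%). Each of the other comparisons gave 0 to 2 of 26, where 3.58% to 9.16% of all genes had such a p. Of the 26, 16 (61.5%) had their highest value of all libraries in HFD-STZ 24 weeks replicate 7, against 20.2% of expressed genes. The partner results are not given without that library.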

How the data were processed

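The authors deposited 1 file of log2 values per library, with 49568 gene symbols each. The study names HISAT2, featureCounts, DESeq2 and the mm10 genome, with versions and the normalization of the deposited values not given in the sources used here. The sources also differ on the library kit (a TruSeq mRNA kit after Trizol, or a SMART-Seq kit after column purification). The values are not counts, so no count model was used and the depth is unknown.

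Groups came from the labels. limma 3.58.1 in R 4.3.3, with a variance prior that follows mean level, was run on the 2 groups compared (4 groups for the 3 tests of a difference between effects), over genes with a mean of at least 3.32 in the fitted libraries. Left out were 25 genes that exceeded 22 in any library. The p-values were Benjamini-Hochberg adjusted over all genes tested, and a call needed an adjusted p under 0.05. Single members were also tested by two-sided exact permutation of libraries, unadjusted. Covariate fits added the mean log2 value of 6 markers per library.

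The members, gene lists and named genes were chosen with earlier results of these data known, Kcnj14 and Kcna1 among them. Named were called members, up to 2 members per direction with the smallest unadjusted p in each comparison, the 10 highest per exonic length, Kcnj10, and members known from axons, ATP-sensitive and BK channels and immune cells. The slope fits and the settings without HFD-STZ 24 weeks replicate 7 were chosen after the data were seen. Alternatives were no filter, the filter in every library, 1 fit of 8 groups with or without library-number run, robust or untrended variance, median centring, both scores as covariates, the high genes kept, and leaving out each library. Places and exonic lengths came from GENCODE M21 (GRCm38). Values of some genes are not reported here.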

Additional observations from a re-analysis of the deposited data

Results flagged for a closer look

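Over 36 named members in 8 groups, 288 sets of values were examined for a library far from the others of its group by Dixon's criterion at 95%, and 12.2% had one. For a single set chance gives about 1 in 20, but the members share the same libraries, so the sets are not independent. Of the 35 gaps, HFD-STZ 24 weeks replicate 7 held 10 and HFD-STZ-DR replicate 4 held 9. HFD-STZ 24 weeks replicate 7 was far above its group in 10 members, with log2 values of 11.2 for Kcnab1, 13.2 for Kcnab2, 8.00 for Kcng4, 11.3 for Kcnh2, 10.2 for Kcnh7, 10.8 for Kcnip2, 5.88 for Kcnk10, 7.46 for Kcnk4, 10.3 for Kcnmb1 and 9.25 for Kcns1. HFD-STZ-DR replicate 4 was far from its group in 9. It was highest for Kcnab1 (10.3), Kcng4 (8.34), Kcnj11 (8.63), Kcnk10 (4.07), Kcnma1 (10.7) and Kcnmb1 (8.73), and lowest for Kcna6 (12.1), Kcnab2 (8.52) and Kcnh2 (10.4). HFD 24 weeks replicate 1 was highest for Kcng4 (6.94) and Kcnj11 (6.46) and lowest for Kcnj10 (4.88) and Kcnk5 (10.6).

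In HFD at 16 weeks, replicate 7 was lowest for Kcnj13 (8.37) and Kcnj2 (8.24). For Kcng4 SD 16 weeks replicate 2 (7.45) and SD 24 weeks replicate 5 (9.11) were highest. In SD at 24 weeks, replicate 7 was lowest for Kcnj8 (9.66), replicate 4 was lowest for Kcnk3 (6.21) and replicate 2 was highest for Kcnk10 (3.99). In HFD-STZ at 24 weeks, replicate 4 was highest for Kcna3 (6.67) and replicate 3 for Kcnj8 (10.8), while replicate 1 was lowest for Kcnk1 (12.6) and replicate 6 for Kcnk3 (7.30). HFD-STZ-DR replicate 1 was highest for Kcna3 (6.53). No gap was found for Kcnj14 in any group.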

How the results depend on the processing

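No analysis of paired mice was run, since the replicate numbers were given in accession order and the labels pair no libraries. Runs of library numbers, which the labels do not call a batch, each held libraries of several groups. They entered as a covariate in the fit of 8 groups. The number of members called in HFD against SD at 24 weeks (1) was 0 where every library had to reach the expression limit, since Kcnj14 was then not tested. In HFD-STZ against SD at 24 weeks it was 0 without a filter (Kcnj14 adjusted p = 0.091), with the filter in every library, and with the muscle covariate (0.094), and 0 to 1 when each library was left out. In HFD-STZ-DR compared with HFD-STZ it was 0 without a filter (0.136), with the filter in every library (0.0622), with an untrended variance (0.0551), and with the adipocyte (0.467) or muscle (0.0712) covariate, and 0 to 2 when each library was left out. In HFD-DR against HFD it was 1 in the fit of 8 groups with library-number run. For these counts of calls under other settings the share of all genes is not given. The number of members with a muscle slope (13 of 67, where 13.8% of all genes had one) was 8 with library-number run, where 9% had. For the adipocyte slope it was 23 instead of 30, where 24.5% instead of 33.5% of all genes had one. Causes were not tested. The adjusted p of Kcnj14 in HFD-STZ against SD was above 0.05 without SD replicate 2 (2.496), 4 (2.36), 5 (2.48), 7 (2.34) or 8 (2.35), or without HFD-STZ replicate 1 (2.28), 2 (2.33), 3 (2.40), 5 (2.39) or 8 (2.49), and in HFD-STZ-DR compared with HFD-STZ without HFD-STZ replicate 1 (-2.39), 2 (-2.44), 3 (-2.51), 5 (-2.497) or 8 (-2.60), or without any 1 HFD-STZ-DR library (-2.69 to -2.49). Of the differences of single members named by the rule, 678 values with 1 library left out and 451 under other settings kept their direction and side of the threshold. Past it went 1 of each (Kcnk3 without HFD-STZ replicate 6, Kcnj14 in HFD-DR against HFD with library-number run), beside Kcnj15 in HFD-STZ-DR without HFD-STZ replicate 7, a comparison in which the rule does not name it, 21 and 7 lost the call, and none reversed.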
